A study of Mus musculus with 10 samples.

Results

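G6pc2, Slc2a2, Abcc8, Ucn3, Ero1lb and Ppp1r1a were followed across the endocrine cells of the fetal mouse pancreas, as 6 of the 27716 genes common to all count matrices. They were taken by name, as parts of the glucose-sensing and insulin-making equipment of mature beta cells, to see which of these parts are present before birth. Single cells of whole pancreas were profiled by droplet sequencing of 3′ tags with molecular identifiers (UMIs) in 10 samples, which make up 8 independent libraries. Swiss Webster embryos gave 4 libraries with the version 1 kit (v1), from all live cells: E12.5, E14.5 batches 1 and 2, and E17.5. Swiss Webster embryos gave 3 libraries with the version 2 kit (v2), from live cells depleted of the mesenchymal surface marker CD140a, 1 library at each of these stages, with E17.5 split over 2 wells of 1 suspension that were summed. The eighth library came from E14.5 Fev-Cre;ROSA26mTmG embryos, in which Cre made in Fev-expressing cells switches a ubiquitous reporter from TdTomato to membrane GFP; live GFP+ and TdTomato+ cells were sorted, and the matrix aligned with both reporters was used. These embryos were on a C57BL/6J background, and no treatment was applied in any group. Each library pooled the pancreata of 1 or 2 litters, so no value belongs to a single embryo. Stage went together with litter and with dissociation time (10 min at E12.5, 15 min at E14.5, 30 min at E17.5), and these cannot be told apart.

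In a mature beta cell glucose enters through GLUT2 (Slc2a2) and is phosphorylated, while the islet glucose-6-phosphatase (G6pc2) removes the phosphate again and so sets the threshold of the response. The rise in ATP closes the KATP channel, of which SUR1 (Abcc8) is the regulatory subunit, and the calcium that follows releases insulin. Ero1lb (ERO1-beta) is the oxidase of the endoplasmic reticulum that drives disulfide formation in proinsulin, Ucn3 is a peptide hormone of the CRF family stored with insulin and widely used as a late marker of beta maturation, and Ppp1r1a (inhibitor-1) is a protein kinase A substrate that inhibits protein phosphatase 1.

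The genes lie on different chromosomes of the mouse (GRCm38), apart from Ucn3 and Ero1lb: G6pc2 at chr2:69211073-69227841 on the plus strand, Slc2a2 at chr3:28697903-28731359 (plus), Abcc8 at chr7:46104523-46180033 (minus), Ucn3 at chr13:3940688-3945349 (minus), Ero1lb at chr13:12565874-12611396 (plus) and Ppp1r1a at chr15:103530279-103538003 (minus). All are annotated as protein coding. The 250 bases before the annotated start are printed for the 4 members found in the RefSeq promoter table (GRCm38.p6), because these genes were high in the same cell class, and the endocrine factors Ngn3 and NeuroD1 belong to the basic helix-loop-helix family that recognises the E-box, CANNTG. E-boxes are in capitals, and all sequences read 5′ to 3′ on the gene's own strand. They end 1 base before the RefSeq start at chr2:69210823-69211072, chr3:28697653-28697902, chr13:3945350-3945599 and chr13:12565633-12565882.
G6pc2: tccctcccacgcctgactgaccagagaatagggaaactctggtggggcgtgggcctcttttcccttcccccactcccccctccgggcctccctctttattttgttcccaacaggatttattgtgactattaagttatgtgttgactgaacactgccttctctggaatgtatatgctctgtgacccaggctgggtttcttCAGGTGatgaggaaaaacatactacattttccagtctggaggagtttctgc
Slc2a2: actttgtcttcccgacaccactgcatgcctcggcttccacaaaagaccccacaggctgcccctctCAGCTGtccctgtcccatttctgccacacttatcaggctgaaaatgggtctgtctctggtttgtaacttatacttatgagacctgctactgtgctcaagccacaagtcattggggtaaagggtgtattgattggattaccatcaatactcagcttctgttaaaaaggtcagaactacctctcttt
Ucn3: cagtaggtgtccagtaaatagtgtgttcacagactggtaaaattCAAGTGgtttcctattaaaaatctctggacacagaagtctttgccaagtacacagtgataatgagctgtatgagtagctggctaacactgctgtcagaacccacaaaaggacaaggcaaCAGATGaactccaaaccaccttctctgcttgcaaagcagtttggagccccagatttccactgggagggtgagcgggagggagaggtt
Ero1lb: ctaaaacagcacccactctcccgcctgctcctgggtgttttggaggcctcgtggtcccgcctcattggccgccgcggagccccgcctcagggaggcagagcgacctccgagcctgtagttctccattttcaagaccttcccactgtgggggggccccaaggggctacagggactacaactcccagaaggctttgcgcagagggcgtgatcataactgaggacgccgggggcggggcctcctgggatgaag
Both strands were searched, and no match overlapped one of another motif. G6pc2 and Slc2a2 held 1 E-box each and Ucn3 held 2, whereas none was found in Ero1lb. Of all 32851 promoter windows of this length, 66.2% held an E-box on either strand, so its presence is common. The homeodomain core TAAT occurred once in G6pc2, once in Slc2a2 and 2 times in Ucn3 (54.9% of all windows held it), and the GC box GGGCGG occurred only in Ero1lb (32.7% of windows). The Ero1lb window was also the richest in G and C of the 4, at 64.4% against 46.4% to 50% in the other three and a median of 52.4% over all windows. Neither strand of these windows held TATAAA. Abcc8 and Ppp1r1a have no printed window.

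Cells were clustered with the 6 genes held out, and clusters were named from fixed markers; because the remaining genes of the same cells set the classes, the tests below compare classes so defined. The libraries kept 2309 to 13182 cells at median depths of 3084 to 9850 UMIs, and 0.455% to 9.47% of them were left out as doublets. The v1 E17.5 library stood apart, since only 2309 of its 4635 barcodes were kept. Libraries shared at most 156 cell barcodes. Beta-like cells numbered 635 in the Fev-Cre library, 303 and 639 in v2 E14.5 and E17.5, 62, 75 and 78 in v1 E14.5 batches 1 and 2 and E17.5, but only 6 and 15 at E12.5, below the 20 required for a comparison. Between 26 and 338 endocrine cells per library remained unnamed. Some classes departed from their names. The epsilon-like cells of the Fev-Cre library held more Gcg (10491 CPM, meaning its UMIs as a share of the class total, on the usual CPM scale) than Ghrl (4598 CPM), the alpha-like cells of v1 E17.5 held 30655 CPM of Ghrl and the Fev+-like cells held 219 (v2 E17.5) to 2532 CPM of Fev beside 351 (Fev-Cre) to 7624 CPM of Neurog3 (v1 E17.5), with Neurog3 above Fev in 6 of the 7 libraries that had at least 20 such cells. The Fev+-like class also differed between kits. In v1 it was 1 cluster of 89 cells led by early genes such as Pax4 and Runx1t1, and a cluster of 199 cells with Fev, Chgb and Cldn4 among its leading genes stayed unnamed, whereas in v2 and Fev-Cre clusters led by Fev, Chgb and Cldn4 belonged to the class. One beta-like cluster of the v1 libraries was led by the platelet genes Pf4 and Ppbp and was low in insulin, as described below. Insulin itself (Ins1 plus Ins2) took 5.98% of all UMIs in beta-like cells of the Fev-Cre library, 9.05%, 4.27% and 20.7% in v1 E14.5 batches 1 and 2 and E17.5, and 13.4% and 40.3% in v2 E14.5 and E17.5. Because this lowers the CPM of every other gene, CPM with Ins1 and Ins2 left out of the total are given where stages of beta-like cells are compared and in the plot against stage.

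All 6 genes were detected in beta-like cells at E14.5 and E17.5, and each was higher there than in Fev+-like cells of the same library in 6 of 6 libraries (the plot of levels by class and library). Abcc8 was held by alpha-, beta- and delta-like cells at overlapping levels. Cells that should lack these genes gave a background: in pooled mesenchymal, endothelial, immune and erythroid cells the levels reached at most 1.92 CPM for G6pc2, 8.66 for Slc2a2, 8.27 for Abcc8, 0.100 for Ucn3, 4.72 for Ero1lb and 6.89 for Ppp1r1a in any library. A level in a class is the sum over its cells and does not separate fewer expressing cells from less RNA per cell.

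**Figure D1:**
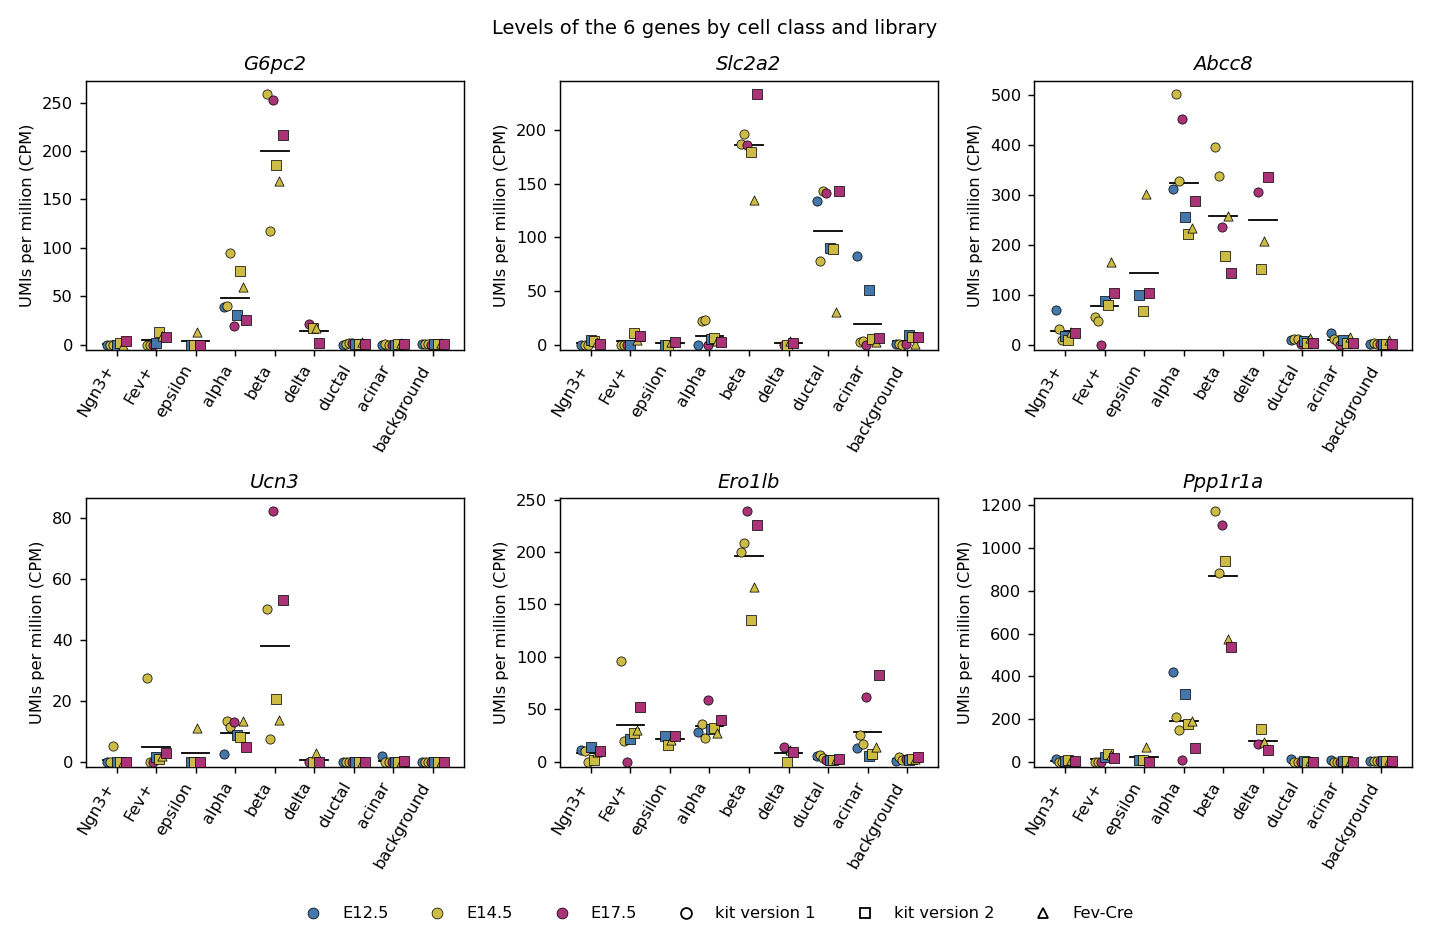
Level of each gene (CPM, linear axis) in each class of each library with at least 20 cells; colours give the stage, symbols the kit or the Fev-Cre library, and the short line the mean over libraries. G6pc2, Slc2a2, Ero1lb and Ppp1r1a stand highest in beta-like cells among the endocrine classes, Abcc8 is high in alpha-, beta- and delta-like cells alike, and Slc2a2 is also seen in ductal-like cells (30.7 to 144 CPM).

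Slc2a2, the glucose transporter, was high in beta-like cells and at or near 0 in the other endocrine classes. Its level there was 135 CPM in the Fev-Cre library, 187, 196 and 186 CPM in v1 E14.5 batches 1 and 2 and E17.5, and 179.5 and 234 CPM in v2 E14.5 and E17.5 (mean 186 ± 31.8, SD, n = 6 libraries). Alpha-like cells of the 8 libraries ranged from 0 to 23.0 CPM with a median of 4.34, and the ranges did not overlap. In the v2 libraries the alpha-like values (5.12, 6.06 and 2.11 CPM) were below the background of the same library (8.66, 6.71 and 7.28 CPM), so no expression is read from them. This background was not an even floor, since the Fev+-like cells of v2 E12.5 and the delta-like cells of v2 E14.5 held 0 CPM. In the Fev-Cre library the alpha-like value, 3.56 CPM from 16 UMIs, was above the background of 0.419 CPM. The 23.0 and 22.3 CPM of v1 E14.5 rested on 8 and 5 UMIs. Delta-like cells of 4 libraries held 3 Slc2a2 UMIs in all, against 4096 in beta-like cells of the same libraries, a ratio of CPM of 141 (95% counting interval 48.4 to 686).

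Among the named endocrine classes G6pc2, the islet phosphatase, was also highest in beta-like cells, with alpha-like cells next by the median over libraries. An unnamed endocrine cluster of 254 cells in the Fev-Cre library had G6pc2 among its leading genes too. Beta-like levels were 169 CPM in the Fev-Cre library, 259, 118 and 252 CPM in v1 E14.5 batches 1 and 2 and E17.5, and 185 and 216 CPM in v2 E14.5 and E17.5. Alpha-like cells ran from 19.7 CPM (v1 E17.5) through a median of 39.6 to 94.9 CPM (v1 E14.5 batch 2), the highest value still below the lowest of the beta-like values. Delta-like cells held 2.1 to 20.9 CPM, Fev+-like cells 0 to 13.1 CPM and Ngn3+-like cells 0 to 3.58 CPM. The last 2 ranges overlapped, with 5 G6pc2 UMIs in the highest Ngn3+-like sum.

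Abcc8, the KATP channel subunit, was above the background already in the precursor classes, apart from the Fev+-like cells of v1 E17.5. Its level ran from 9.04 to 68.6 CPM in Ngn3+-like cells (7 libraries) and 0 to 165 CPM in Fev+-like cells (7 libraries) to 221 to 503 CPM in alpha-like cells (8 libraries). Beta-like cells held 143 to 396 CPM and delta-like cells 152 to 335 CPM, both overlapping the alpha-like range. Epsilon-like cells were at 301 CPM in the Fev-Cre library, whose epsilon-like class is rich in Gcg, and 67.9 to 102 CPM in the 3 v2 libraries. The 0 among the Fev+-like values is v1 E17.5, a sum over 21 cells in which 3 UMIs correspond to 55.4 CPM.

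Ero1lb, the proinsulin oxidase, was at 166 CPM in beta-like cells of the Fev-Cre library, 200.2, 208 and 239 CPM in v1 E14.5 batches 1 and 2 and E17.5, and 135 and 226 CPM in v2 E14.5 and E17.5. Every other endocrine class with at least 20 cells stayed below 100 CPM: alpha-like cells at 23.0 to 59.0, Fev+-like at 0 to 96.3 (the highest from 7 UMIs), epsilon-like at 16.2 to 25.1, and delta-like at 0 to 13.9 CPM. Alpha-like and Fev+-like levels overlapped.

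Ucn3, the late maturation marker, varied widely between libraries in beta-like cells, from 7.35 CPM in v1 E14.5 batch 2, from 3 UMIs, to 82.4 CPM in v1 E17.5 (mean 37.9 ± 28.9, SD, n = 6). It was 13.7 CPM in the Fev-Cre library, 50.1 CPM in v1 E14.5 batch 1, and 20.6 and 53.1 CPM in v2 E14.5 and E17.5. Alpha-like cells held 2.61 to 13.4 CPM, which overlaps the lowest beta-like value but exceeds the background in all 8 libraries. In v1 E14.5 batches 1 and 2 and E17.5 this rested on 3, 4 and 2 UMIs, against backgrounds of 0, 0.081 and 0 CPM. Delta-like cells of the 4 libraries compared held 1 Ucn3 UMI against 820 in beta-like cells, a ratio of 85.0 (15.2 to 3360).

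Ppp1r1a, the phosphatase inhibitor, was at 577 CPM in beta-like cells of the Fev-Cre library, 1174, 882 and 1108 CPM in v1 E14.5 batches 1 and 2 and E17.5, and 939.95 and 537 CPM in v2 E14.5 and E17.5. Alpha-like levels were ordered by stage: 418 and 319 CPM at E12.5 (v1, v2), 209, 147, 177 and 191 CPM in the 4 E14.5 libraries, and 6.56 and 65.0 CPM at E17.5. Delta-like cells held 56.1 to 152 CPM and Fev+-like cells 0 to 36.6 CPM. At E12.5 the 15 beta-like cells of v2 already held the gene, at 789.5 CPM (67 UMIs, counting interval 612 to 1003). In v1 the 6 cells of the beta-like clusters held 338 CPM (7 UMIs, 136 to 695), but with 0 Ins1, 48.2 CPM of Ins2 and 2556 CPM of Gcg their markers go against the name.

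The other members were seen unevenly in those E12.5 cells, where insulin was 1.27% of UMIs in v2 and 0.00482% in v1. In the 15 v2 cells G6pc2 gave 18 UMIs (212 CPM, 126 to 335) and Abcc8 19 UMIs (224 CPM, 135 to 349.6). Ero1lb gave 7 UMIs (82.5 CPM, 33.2 to 170.0), Slc2a2 3 UMIs (35.4 CPM, 7.29 to 103) and Ucn3 1 UMI. The upper bound for Slc2a2 lies below the lowest beta-like level of any later library, 135 CPM, whereas the intervals of G6pc2, Abcc8 and Ero1lb reach into the later ranges. In later beta-like clusters low in insulin, described below, Slc2a2 was at 57.9 (Fev-Cre) and 68.2 CPM (v1 E17.5), within its E12.5 interval. In those of v1 E14.5 batches 1 and 2 it was at 119 and 176 CPM, above that interval. The 6 v1 cells gave 5 G6pc2, 9 Abcc8 and 1 Slc2a2 UMIs and none of Ucn3 or Ero1lb, in a sum where 3 UMIs correspond to 145 CPM. Intervals and limits cover counting error only.

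The first comparison asked which members differ between beta- and alpha-like cells of the same libraries, with edgeR's quasi-likelihood test on UMI sums and the library as a term (6 libraries). Of 6721 genes tested, 13.4% were called higher in beta-like cells and 12.4% lower at an adjusted p below 0.05, and Ppp1r1a, Ero1lb and G6pc2 were called higher. Ppp1r1a was higher by 2.77 ± 0.30 on the log2 scale (± SE, adjusted p = 6.2e-06), Ero1lb by 2.72 ± 0.15 (6.1e-09) and G6pc2 by 2.08 ± 0.33 (0.00029). The fitted difference of Slc2a2 was 5.45 ± 0.36. Each of the 4 was higher in 6 of 6 libraries with ranges that did not overlap. The share of all genes with ranges apart was not computed here or in the following comparisons, so such ranges are a description. Abcc8 differed by -0.22 ± 0.10 (adjusted p = 0.14), being lower in beta-like cells in 4 of 6 libraries. Without the Fev-Cre library this difference was -0.33 and passed the test (adjusted p = 0.040). Ucn3 was below the count filter in alpha-like cells and was compared by an exact two-sided sign-flip permutation test. It was higher in 5 of 6 libraries by 1.17 ± 1.2 (SD) on the log2(CPM + 5) scale, with an exact p of 0.094 where the smallest possible is 0.031. A gene can pass the count filter through the class where it is high alone, as Slc2a2 did here with 0 to 16 UMIs per alpha-like sum, and such a gene had to differ. In this and the following comparisons such members are given by their fitted difference, without a p and not as tested, and counts of members called are a description.

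Against Fev+-like cells, the endocrine precursors that express the transcription factor Fev, 16% of 7025 genes were called higher in beta-like cells, 13.9% lower and 29.9% in all (6 libraries). Ero1lb was higher by 2.78 ± 0.23 (adjusted p = 8.5e-07) and Abcc8 by 1.63 ± 0.27 (0.00041). The Fev+-like sums of v1 E14.5 batches 1 and 2 and E17.5 held few UMIs of these genes, 7, 3 and 0 of Ero1lb and 4, 7 and 0 of Abcc8. Those of v2 and Fev-Cre held 29 to 146 and 84 to 802. The other members were sparse in Fev+-like cells, with no UMI of Ppp1r1a, Slc2a2 or G6pc2 in any of the 3 v1 sums and 0 to 10 UMIs of Ucn3 per sum, and passed the filter through the beta-like sums. Their fitted differences were 5.33 ± 0.32 for Ppp1r1a, 5.29 ± 0.25 for Slc2a2, 4.90 ± 0.28 for G6pc2 and 3.98 ± 0.41 for Ucn3. Abcc8 and Ucn3 were the members whose ranges overlapped between the classes over libraries, although each was higher in beta-like cells of 6 of 6 libraries. Alpha-like against Fev+-like cells (7 libraries, 16.9% of 7451 genes called higher, 14.1% lower and 31% in all) called Abcc8 higher by 1.77 ± 0.26 (adjusted p = 0.00010). Ppp1r1a and G6pc2, sparse in the same Fev+-like sums, had fitted differences of 2.90 ± 0.24 and 2.84 ± 0.27 and were higher in alpha-like cells of 7 of 7 libraries. Ero1lb differed by 0.14 ± 0.22 (adjusted p = 0.67) and was higher in alpha-like cells of 4 of 7 libraries. Slc2a2 and Ucn3 were below the filter there. By the exact permutation test their differences on the log2(CPM + 5) scale were 0.64 ± 1.38 (SD, exact p = 0.31) and 0.95 ± 0.93 (exact p = 0.047, adjusted over 7 such tests 0.22). The 2 comparisons share the Fev+-like sums.

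Between Ngn3+-like and Fev+-like cells, the 2 precursor steps, 15.9% of 7985 genes were called higher in the latter, 19% lower and 34.9% in all (6 libraries), and 2 members passed the filter. Abcc8 was higher by 2.30 ± 0.19 (adjusted p = 1.7e-07), from a median of 19.9 CPM to one of 83.4 CPM. Ero1lb, with 0 to 15 UMIs per Ngn3+-like sum, passed the filter through the Fev+-like sums. Its fitted difference was 1.89 ± 0.32, from a median of 9.85 to one of 28.6 CPM. Both were higher in 6 of 6 libraries with ranges apart. G6pc2, Slc2a2, Ucn3 and Ppp1r1a were below the filter, with 7, 14, 1 and 28 UMIs in the Ngn3+-like and 72, 49, 20 and 238 in the Fev+-like cells of these libraries, and none passed the exact permutation test (p = 0.12, 0.50, 0.31 and 0.12). In 2 libraries both classes held no UMI of G6pc2, Slc2a2 or Ppp1r1a, so 0.12 is the smallest exact p these 3 genes could give and the test cannot pass for them. For Ucn3 the smallest exact p is 0.031. With each library clustered alone Ppp1r1a was higher by 2.27 on the log2(CPM + 5) scale (exact p = 0.031).

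**Figure D2:**
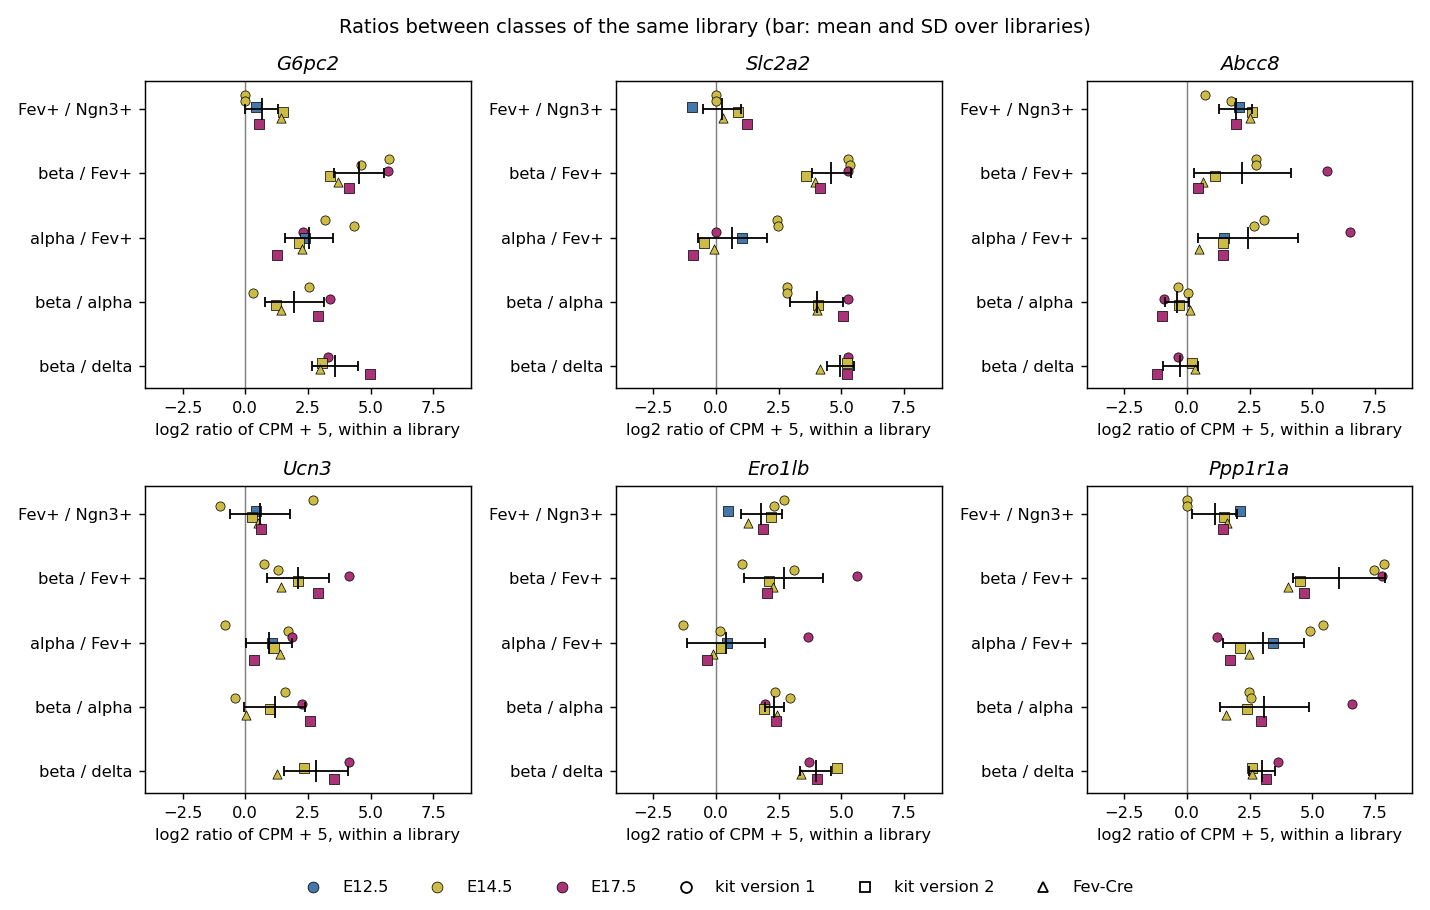
Log2 ratio of CPM + 5 between 2 classes of the same library (x axis), for 5 pairs of classes; points are libraries, and the vertical tick and bar give the mean and SD. Beta-like over alpha-like ratios of Slc2a2, Ero1lb, G6pc2 and Ppp1r1a lie above 0 in 6 of 6 libraries, those of Abcc8 scatter about 0, and the beta/Fev+ and alpha/Fev+ ratios of Abcc8 are both above 0.

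Delta- and epsilon-like cells were compared with beta-like cells in fewer libraries. Against delta-like cells (4 libraries, 9.03% of 7422 genes called higher in beta-like cells and 7.91% lower) Ppp1r1a was higher by 3.33 ± 0.19 (adjusted p = 5.4e-10). The fitted differences of G6pc2 and Ero1lb were 5.13 ± 0.39 and 4.98 ± 0.27, with 3 to 6 and 0 to 13 UMIs per delta-like sum. Slc2a2 and Ucn3 had 3 and 1 UMIs in all delta-like cells, and the ratios of CPM given above describe them. Abcc8 differed by -0.12 ± 0.16 (adjusted p = 0.70). Against epsilon-like cells (3 libraries, 1.63% of 9891 genes called higher, 1.32% lower and 2.95% in all) Ero1lb was higher by 3.40 ± 0.27 (adjusted p = 0.0013), with 5, 60 and 11 UMIs in the epsilon-like sums of v2 E14.5, Fev-Cre and v2 E17.5. The epsilon-like sums of both v2 libraries held 1 Slc2a2, 2 Ppp1r1a and no G6pc2 or Ucn3 UMIs in all. The fitted differences of these genes, 6.44 ± 0.39 for Slc2a2, 5.08 ± 0.85 for Ppp1r1a, 4.90 ± 0.63 for G6pc2 and 2.07 ± 0.85 for Ucn3, therefore rest on the Fev-Cre library, whose epsilon-like cells are rich in Gcg. Abcc8 did not pass (0.83 ± 0.33, adjusted p = 0.26), but it passed without the Fev-Cre library (1.45, adjusted p = 2.4e-07), without the count filter (0.88, 0.0047) and with sums of 10 cells (0.93, 0.016).

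Within beta-like cells the members were found side by side in single cells. After thinning to 2000 UMIs (56 of 62, 74 of 75 and 70 of 78 v1 cells and all v2 and Fev-Cre cells were deep enough), a beta-like cell held on average 1.67 (Fev-Cre) to 2.34 (v1 E14.5 batch 1, v1 E17.5) of the 6 genes. Between 5.36% and 16.7% of beta-like cells showed none of them and 21.6% to 45.7% showed 3 or more. The mean number was 0.625 to 1.11 in alpha-like cells, 0.0857 to 0.383 in Fev+-like cells and 0.0322 to 0.130 in Ngn3+-like cells, and these 4 ranges did not overlap except for Fev+-like and Ngn3+-like cells. In the deepest library, v2 E17.5, the unthinned share of beta-like cells with a UMI (median 19714 UMIs per cell) was 93.9% for Ero1lb, 93.4% for Ppp1r1a, 89.0% for Abcc8, 85.6% for Slc2a2, 72.1% for G6pc2 and 39.0% for Ucn3. After thinning these shares were 34.3%, 58.2%, 25.98%, 34.7%, 26.9% and 6.89%. In the background cells of that library (median 11246 UMIs) the unthinned shares were 4.42%, 1.90%, 0.983%, 3.67%, 0.398% and 0.117%.

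**Figure D3:**
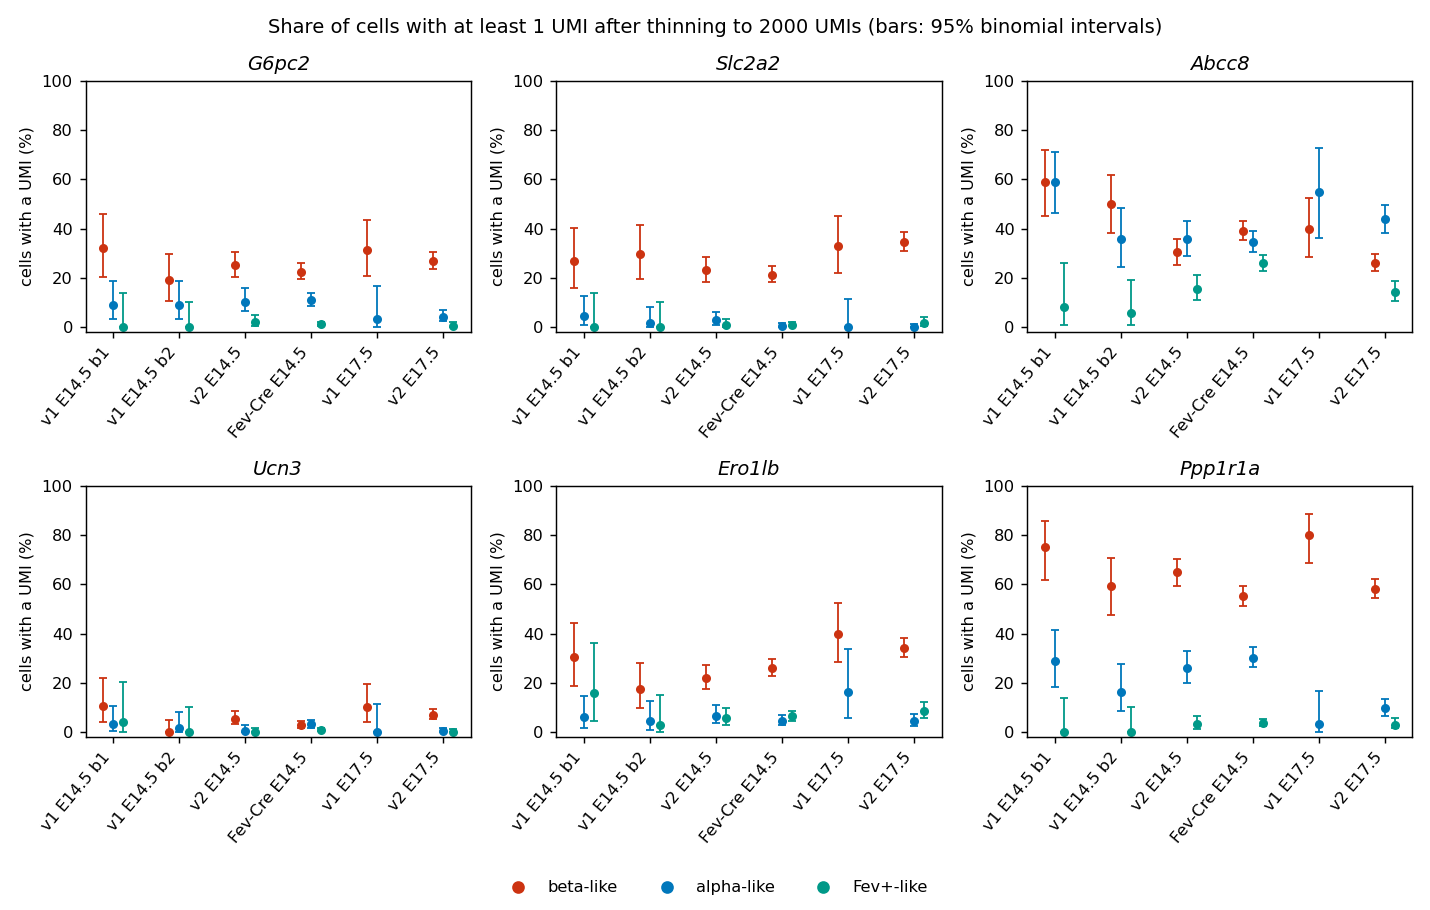
Share of cells (percent) with at least 1 UMI of each gene after thinning every cell to 2000 UMIs, in beta-, alpha- and Fev+-like cells of 6 libraries, with exact 95% binomial intervals; classes with under 20 cells deep enough are left out. Beta-like shares are above alpha-like ones for G6pc2, Slc2a2, Ero1lb and Ppp1r1a in each library shown. The shares for Abcc8 overlap, and those for Ucn3 stay at or below 10.7% in the random draw shown. The intervals do not cover the randomness of the thinning.

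Stage was compared within the 5 Swiss Webster libraries of E14.5 and E17.5, with the kit as a term. Batch 2 of the v1 libraries, with its E14.5 and E17.5, was collected on another day than batch 1, and each v2 stage on a day of its own. Without batch 1 the v1 stages come from 1 batch, and 424 genes were called in beta-like cells in place of 70. In beta-like cells 0.824% of 5342 genes were called higher at E17.5, 0.487% lower and 1.31% in all, and Ucn3 was the 1 member called. Its E14.5 sums held 11, 3 and 38 UMIs, and its E17.5 sums 31 and 680. It passed the count filter through the E17.5 sums, so its difference is given as fitted, without a p. With insulin left out of the total, Ucn3 CPM was at 55.0 and 7.68 in v1 E14.5 batches 1 and 2 and at 104 in v1 E17.5, and it was 23.8 in v2 E14.5 and 89.0 in v2 E17.5. Both E17.5 values were above the 3 E14.5 values, and the fitted difference was 2.14 ± 0.44 on the log2 scale, or 2.44 without v1 E14.5 batch 1. The call of the fit rested on few libraries. It was lost without v2 E14.5 (2.12), with each library clustered alone (1.88) and without the beta-like clusters low in insulin (1.99).

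The other members had smaller differences that did not pass. Ero1lb, at 220.1, 218 and 156 at E14.5 and 302 and 378 at E17.5 on the same scale, differed by 1.04 ± 0.27 (adjusted p = 0.078), with no overlap between stages. G6pc2, at 285, 123 and 214 against 318 and 362, differed by 0.91 ± 0.30 (adjusted p = 0.19). Slc2a2, at 205, 205 and 207 against 235 and 392, differed by 0.74 ± 0.26 (adjusted p = 0.24). For these 3 genes both E17.5 values were above every E14.5 value. That order did not hold for G6pc2 and Slc2a2 with the beta-like clusters low in insulin left out of v1. G6pc2 was then at 509 in v1 E14.5 batch 1, 196 in batch 2 and 419 in v1 E17.5. Slc2a2 was at 320, 250 and 301 in these libraries, and Ero1lb, at 296, 284 and 367, kept its order. Leaving out v1 E14.5 batch 1 brought Ero1lb (1.05, adjusted p = 0.0048) and G6pc2 (1.14, adjusted p = 0.0016) past the threshold, and Ero1lb also passed without the count filter (1.01, adjusted p = 0.037). Other settings gave smaller differences. Over 17 settings they ran from 0.57 to 1.42 for Ero1lb, 0.53 to 1.14 for G6pc2 and 0.30 to 1.07 for Slc2a2, with 2, 1 and 0 called. Ppp1r1a (0.26 ± 0.30, adjusted p = 0.79) and Abcc8 (0.09 ± 0.26, adjusted p = 0.93) overlapped between stages.

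**Figure D4:**
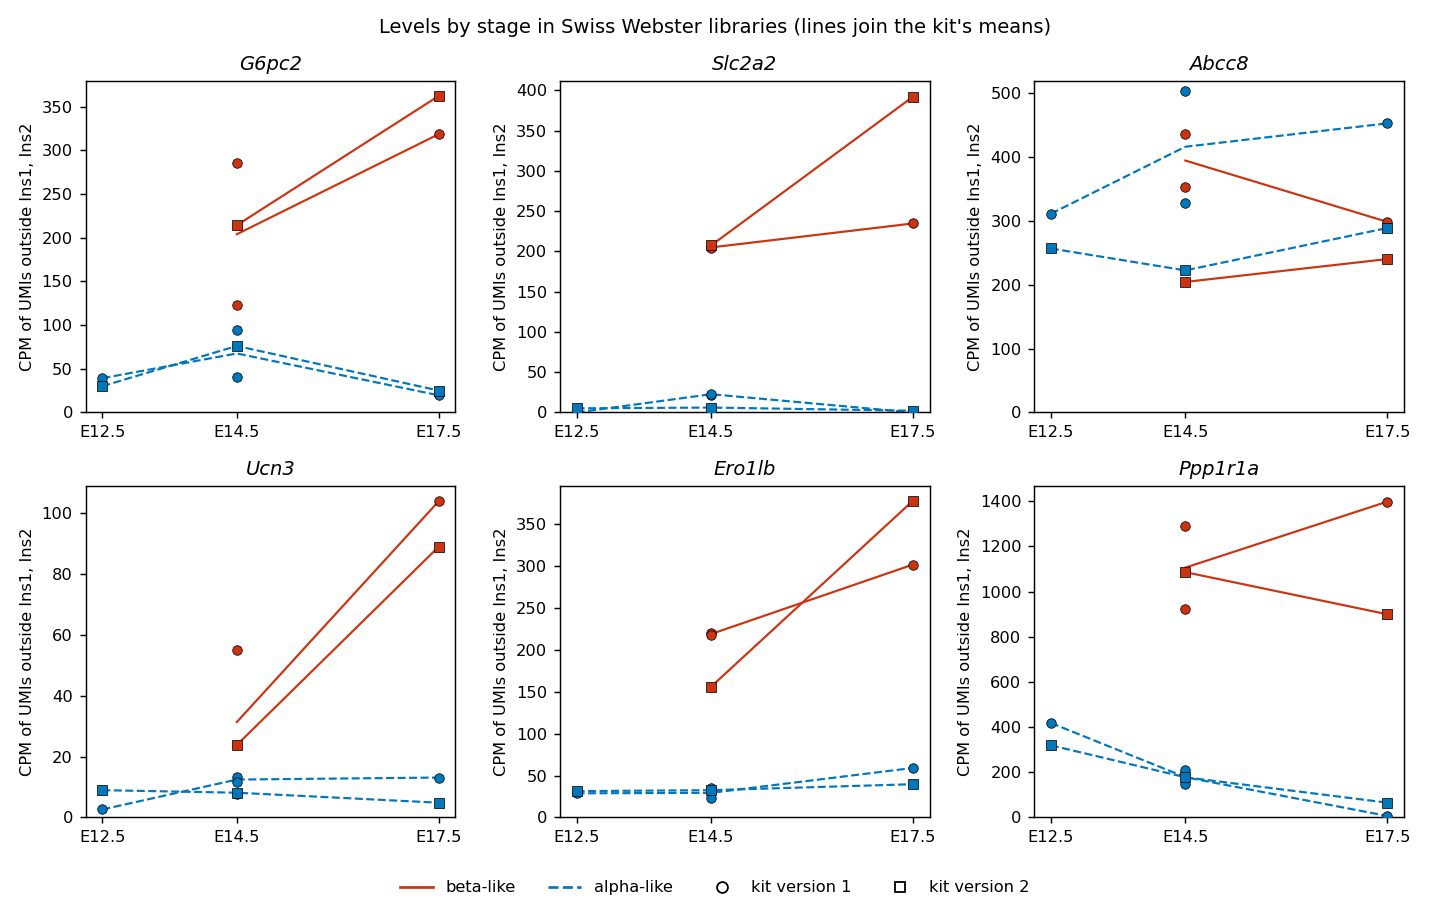
CPM with Ins1 and Ins2 left out of the total (linear axis) against embryonic stage in Swiss Webster libraries with at least 20 cells of the class; circles and squares are libraries of the v1 and v2 kits, and lines join the mean of each kit. In beta-like cells, with the clusters low in insulin included, G6pc2, Slc2a2, Ucn3 and Ero1lb stand higher at E17.5 than at E14.5 in both kits. In alpha-like cells Ppp1r1a goes from 418 and 319 at E12.5 to 6.56 and 65.3 at E17.5.

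In alpha-like cells 0.414% of 5315 genes were called lower at E17.5 than at E14.5, 0.527% higher and 0.941% in all, and Ppp1r1a was the 1 member called, lower by 1.78 ± 0.39 on the log2 scale (a difference of -1.78, adjusted p = 0.014). Both E17.5 values, 6.56 CPM from 1 UMI in v1 and 65.0 CPM in v2, were below the E14.5 values of 209, 147 and 177 CPM. The alpha-like class of v1 E17.5 held 30655 CPM of Ghrl against 193 to 5601 CPM at E14.5, and in the v2 epsilon-like cells, the class that Ghrl marks, Ppp1r1a was at 0 to 8.33 CPM; the part of Ghrl-bearing cells in this difference was not tested. The fitted difference was -4.56 (adjusted p = 4.5e-05) without v2 E14.5 and -4.53 (4.8e-05) without v2 E17.5, so that its size rests on single libraries. DESeq2 gave -2.14 with no adjusted p. The call was lost without v1 E17.5 (-1.33, adjusted p = 0.061) and with cells of more than 1 hormone left out (-1.79, adjusted p = 0.078). It was also lost under a coarser clustering (Leiden resolution 0.6: -0.72, adjusted p = 0.65), with doublets kept (-0.82, 0.62) and with a minimum of 500 genes per cell (-0.87, 0.57). In those 3 settings the alpha-like class of v2 E17.5 held 318 to 380 cells with 9.93% to 10.7% of their UMIs from insulin, against 312 cells with 0.557% at resolution 1, 331 cells with 0.525% when each library was clustered alone and 285 cells with 0.3% when cells of more than 1 hormone were left out. G6pc2 differed by -1.45 ± 0.43 (adjusted p = 0.12). Its difference was -1.58 (adjusted p = 0.013) without v1 E14.5 batch 1 and -1.54 (adjusted p = 0.044) without the count filter. At resolution 0.6 the G6pc2 difference shrank to -0.27 (adjusted p = 0.89). It was -0.30 (adjusted p = 0.87) with doublets kept and -0.48 (adjusted p = 0.76) with 500 genes per cell. Over 15 settings it ran from -1.71 to -0.27, with 2 called. Ero1lb differed by 0.76 ± 0.43 (adjusted p = 0.58) and Abcc8 by 0.44 ± 0.31 (0.67). Slc2a2 and Ucn3 were below the filter.

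The difference between the stage changes of beta- and alpha-like cells was tested directly by an interaction term, which called 1.1% of 6463 genes higher, 0.619% lower and 1.72% in all. G6pc2 (2.48 ± 0.36, adjusted p = 0.00044) and Ppp1r1a (1.51 ± 0.30, 0.0084) were called, each moving up in beta-like relative to alpha-like cells. The fit also called Slc2a2 (3.54 ± 0.65) and Ucn3 (2.77 ± 0.65), but these passed the count filter through the beta-like sums alone. Alpha-like sums held 5, 8 and 6 Slc2a2 UMIs at E14.5 and 0 and 7 at E17.5, in v2 below the background, and 3, 4 and 8 Ucn3 UMIs against 2 and 16. Their values are therefore given as fitted, and no difference between the stage changes is read from them. Ero1lb (0.62 ± 0.33, adjusted p = 0.54) and Abcc8 (-0.27 ± 0.20, adjusted p = 0.71) were not. The calls changed with the clustering. In the 3 settings in which that class held about 10% insulin UMIs, as given above, no member was called, the difference of Slc2a2 turned to -1.16, -1.10 and -1.35, and the level of Slc2a2 in that class was 51.2, 45.5 and 49.4 CPM in place of 2.11 CPM. With cells of more than 1 hormone left out G6pc2 and Ppp1r1a stayed past the threshold (adjusted p = 4.0e-05 and 0.00093). That class then held 0 Slc2a2 UMIs and 0.3% insulin, so nothing is read from the fit of Slc2a2 there. Calls were also lost where the class was low in insulin. With each library clustered alone (0.525% insulin, 1.97 CPM of Slc2a2) the differences were 1.78 for Slc2a2 (adjusted p = 0.45), 2.14 for Ucn3 (0.13) and 0.42 for Ppp1r1a (0.71), and G6pc2 alone was called (1.47, 0.00032). Without the beta-like clusters low in insulin Ucn3 (2.44, adjusted p = 0.17) and Ppp1r1a (1.12, 0.37) were not called. DESeq2 gave 2.50 for Ppp1r1a (adjusted p = 0.44) and 2.68 for Ucn3 with no adjusted p. Single libraries mattered as well. Without v2 E17.5 the differences were 5.94 for Slc2a2 (adjusted p = 0.77), 1.62 for Ucn3 (0.84) and 2.55 for G6pc2 (0.32), none of them called, and 5.04 for Ppp1r1a (3.0e-06). Ucn3 was not called without v1 E14.5 batch 1 (2.99, adjusted p = 0.053), batch 2 (2.39, 0.086) or v2 E14.5 (3.06, 0.23), nor was Ppp1r1a without v2 E14.5 (1.53, 0.11). The part of the insulin-bearing cells of the alpha-like class in these differences was not tested.

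Beta-like cells were not uniform in these genes. In 4 libraries (v1 E14.5 batches 1 and 2, v1 E17.5 and Fev-Cre) a cluster of 37, 47, 23 and 239 beta-like cells held 1.71%, 0.417%, 2.54% and 0.422% insulin UMIs, beside 17.46%, 9.98%, 26.3% and 8.64% in the other beta-like clusters. Since clusters were cut from the same cells, their levels are given as a description. Ppp1r1a was at 724, 435, 364 and 197 CPM in the clusters low in insulin and at 1690.2, 1546, 1336 and 759 CPM in the others. G6pc2 was at 119, 77.9, 68.2 and 43.5 CPM against 420.1, 177, 309 and 229 CPM. Slc2a2 was at 119, 176, 68.2 and 57.9 CPM against 264, 225, 222 and 172 CPM, and Ero1lb at 162, 176, 136 and 112 CPM against 244, 256, 271 and 192 CPM. These 4 genes were thus lower in the clusters low in insulin in all 4 libraries. Abcc8 was at 426, 328, 296 and 251 CPM against 361, 353, 219 and 261 CPM, with the order differing between libraries. Ucn3, at 25.6, 8.20, 34.1 and 7.75 CPM against 78.2, 6.09, 97.1 and 16.6 CPM, was lower in 3 of 4.

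**Figure D5:**
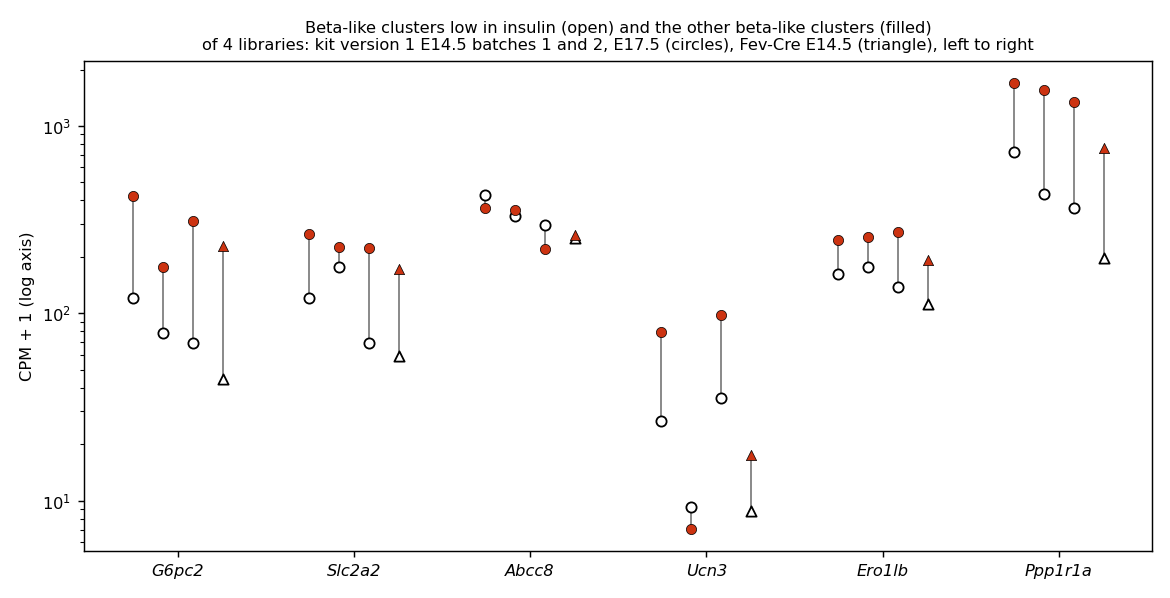
CPM + 1 (log axis) of each gene in beta-like clusters low in insulin (open) and in the other beta-like clusters (filled) of the same library, joined by a line, for 4 libraries. The open symbols lie below the filled ones for G6pc2, Slc2a2, Ero1lb and Ppp1r1a in 4 of 4 libraries, and the symbols of Abcc8 lie close together in each library.

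Outside the endocrine classes 3 members had levels of their own. Slc2a2 was found in ductal-like cells of all 8 libraries, at 134 CPM in v1 E12.5, 78.1, 144 and 142 CPM in v1 E14.5 batches 1 and 2 and E17.5, 143.5 CPM in v2 E17.5, 88.8 CPM in v2 E14.5, 89.7 CPM in v2 E12.5, and 30.7 CPM in the Fev-Cre library, each above the background of the library. In acinar-like cells it was at 82.5 and 51.3 CPM at E12.5, from 45 and 1340 UMIs, and at 0 to 5.66 CPM in the 6 later libraries. Ero1lb showed the opposite order in acinar-like cells, with 12.8 and 5.78 CPM at E12.5, 7.28 to 26.003 CPM at E14.5, and 62.0 (7 UMIs in 30 cells) and 82.6 CPM (1851 UMIs) at E17.5. These stage orders were seen in both kits, and no test was made of them. Ppp1r1a was at 10.1 to 32.7 CPM in neural crest-like cells, above the background of each library. Among unnamed endocrine cells of v2 E17.5, which held 20.6% insulin UMIs, G6pc2 was at 91.2 CPM and Ucn3 at 24.2 CPM.

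Genes that act beside the members were counted in fixed lists, which were chosen with earlier results of these data known. Of 15 genes of glucose entry and phosphorylation, 4 passed the count filter between beta- and alpha-like cells. The 4 were higher in beta-like cells where 13.4% of all genes were, with a median of 0.66 against -0.03 over all genes. They included Slc37a4, the glucose-6-phosphate transporter that supplies G6pc2 (1.12 ± 0.18, adjusted p = 0.00029), and the sugar transporter Slc2a5 (0.59 ± 0.15, adjusted p = 0.0098). Of 10 genes of the KATP channel and calcium entry, 3 were tested and none was higher in beta-like cells, and the calcium channel subunit Cacnb3 was lower (-0.82 ± 0.21, adjusted p = 0.011). Kcnj11, the pore subunit that assembles with SUR1, did not exceed 0.391 CPM in beta-like cells of any library, and its mean was at most 2.08 CPM in any other class of the pancreas epithelium; whether the 3′ end of this gene is covered by the annotation used for counting was not checked. Kcnj11, Mafa and Crhr2 were chosen for mention after their values were seen.

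Most partners of Ero1lb were also higher in beta-like cells. Of 16 genes of oxidative folding in the endoplasmic reticulum 14 were tested, and 12 were higher and 2 lower in beta- than in alpha-like cells (median 1.18). Over all genes 13.4% were higher and 12.4% lower. Sdf2l1 (2.68 ± 0.25, adjusted p = 1.9e-06), Creld2 (2.34 ± 0.20, 7.2e-07) and the co-chaperone Dnajb9 (1.78 ± 0.18, 3.6e-06) differed most, and the peroxidases Gpx7 (-0.70 ± 0.15, 0.0036) and Prdx4 (-0.69 ± 0.13, 0.00099) were lower. Against Fev+-like cells 13 of 14 were higher (median 1.74), where 16% of all genes were. Between Ngn3+- and Fev+-like cells, where the level of Ero1lb was already higher, 2 of 14 were higher and 5 were lower (median -0.19). There 15.9% of all genes were higher and 19% lower. Between stages none of 14 passed in beta-like cells (median 0.51) or of 13 in alpha-like cells (median -0.23) by edgeR's test. The interaction term, which compares the stage changes of these classes, called 8 of 14 higher, where it called 1.1% of all genes higher. The median was 1.03, against -0.003 over all genes. Sdf2l1 (1.72 ± 0.32, adjusted p = 0.0041), Pdia4 (1.33 ± 0.26, 0.0064) and Dnajb9 (1.31 ± 0.25, 0.0058) led. The genes called in all by this term fell from 111 to between 5 and 10 in the 3 settings in which the alpha-like class of v2 E17.5 held about 10% insulin UMIs. Of 8 genes of proinsulin conversion and granule storage 1 was higher and 2 lower in beta- than in alpha-like cells, where 13.4% and 12.4% of all genes were. Pcsk1, the convertase that starts proinsulin processing, was higher (1.98 ± 0.20, adjusted p = 4.0e-06), and Pcsk1n and Cpe were lower (-0.51 ± 0.10, adjusted p = 0.0012, and -0.45 ± 0.09, adjusted p = 0.0025). Against Fev+-like cells 7 of the 8 were higher in beta-like cells and 1 lower, where 16% and 13.9% of all genes were. Between Ngn3+- and Fev+-like cells 6 were tested and 6 were higher in the latter, where 15.9% of all genes were. The interaction term called 3 of the 8 listed genes higher, against 1.1% of all genes: Pcsk1 (1.49 ± 0.26, adjusted p = 0.0029), Slc30a8 (1.02 ± 0.25, 0.033) and Scg5 (0.66 ± 0.17, 0.049). Within a class the zinc transporter of the granule, Slc30a8, was the 1 listed gene besides the members called between stages, higher at E17.5 in beta-like cells (2.56 ± 0.25, adjusted p = 0.00043) and in alpha-like cells (1.41 ± 0.32, adjusted p = 0.021).

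Of 6 genes of postnatal beta maturity, 2 passed the filter. The fatty acid receptor Ffar1 was higher in beta- than in alpha-like cells (0.83 ± 0.15, adjusted p = 0.00081), where 13.4% of all genes were. The cation channel Trpm5, at 0 to 8.90 CPM in the alpha-like sums of these libraries, passed through the beta-like sums. Its fitted difference was 3.19 ± 0.40. Mafa, the transcription factor of mature beta cells, did not exceed 0.386 CPM in beta-like cells of any library. None of the other genes of the CRF family could be tested between beta- and alpha-like cells, and Crhr2, a receptor of Ucn3, was at 26.4 ± 18.6 CPM in beta-like cells against 5.06 ± 3.82 CPM in alpha-like cells (SD, n = 6 and n = 8), without a test. Of 10 genes of protein phosphatase 1, the enzyme that Ppp1r1a inhibits, 7 were tested and 1, Ppp1r14b, was higher in beta-like cells (0.99 ± 0.12, adjusted p = 1.6e-05), a share near the 13.4% of all genes called higher in this comparison. Of 13 genes of cAMP signalling 8 were tested and 2 were higher (13.4% over all genes), the kinase subunit Prkar2b (0.72 ± 0.18, adjusted p = 0.0087) and the incretin receptor Gipr (0.53 ± 0.14, adjusted p = 0.014). Of 19 genes whose expression is disallowed in mature beta cells 4 were tested, and 1, Oat, was higher in beta-like cells where 13.4% of all genes were (1.35 ± 0.19, adjusted p = 7.7e-05).

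Genes with the most similar pattern were sought over 36 sums of class and library among 5946 genes, by Pearson's r of log2(CPM + 10), as a description: the sums share libraries and depth. G6pc2 and Ppp1r1a were each other's nearest genes (r = 0.93), followed for both by Papss2 (0.90 and 0.91). Slc2a2 was nearest to Npy (0.95), Prss53 (0.90) and Nnat (0.87). Abcc8 was nearest to Usp51 (0.93), Ush1c (0.92) and Tcta (0.91), and among the members its r was highest with Ppp1r1a (0.71) and lowest with Slc2a2 (0.37). Ucn3 was nearest to Tmem65 (0.81) and then to Ero1lb (0.80), and Ero1lb to Atp2a2, the calcium pump of the endoplasmic reticulum (0.87), and then to Slc2a2 (0.83).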

How the data were processed

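The authors sequenced 3′ tags of single cells on the 10x platform and deposited filtered UMI count matrices (raw counts per gene and barcode, not normalized), made with Cell Ranger 1.1 and 2.1 against mm10 per the labels. No per-sample column was left unused. The 6 members and all gene lists were chosen with earlier results of these data known.

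Barcodes with at least 200 genes were clustered on 2000 variable genes, with 108 members and list genes held out (20 principal components, 20 neighbours, Leiden resolution 1; igraph 0.11.9, leidenalg 0.10.2, Python 3.11.15), and v2 endocrine cells were joined with Seurat 5.3.0. A cluster took a name from at least 3 markers at 1.5-fold in 10% of its cells. Cells with markers of several compartments were left out as doublets, and no doublet caller was run. Counts were summed per class and library for classes of at least 20 cells. The sums were tested with edgeR 4.0.16 (quasi-likelihood, TMM, filterByExpr, Benjamini-Hochberg over all genes, R 4.3.3), with the library, or for stages the kit, as a term, at an adjusted p of 0.05. The procedure was tested on simulated data. Members below the filter were compared by an exact sign-flip permutation test of log2(CPM + 5), over 7 tests. CPM scales the UMIs of a gene to a common total per sum, with exact Poisson 95% intervals. Shares of cells were taken after thinning to 2000 UMIs, with exact binomial intervals. Rather than from separate embryos, libraries come from pooled litters, so p-values measure the spread between these libraries, which may be technical.

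The text names the members, up to 3 called genes per list, comparison and direction with the largest change, and the 3 genes most similar to each member among those with a mean of at least 20 CPM; markers that named classes are not results, and 1 gene that this rule names is not reported here. Alternatives covered DESeq2 1.42.0, no count filter, other clusterings and cell filters, thinning depths, and leaving out each library. Leaving out insulin counts, cells with more than 1 hormone, or beta-like clusters low in insulin (under 20% of the insulin share of the library's top beta-like cluster) was chosen after seeing the data. The Fev-Cre matrix aligned without reporters is the same library and was used only as an alternative.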

Additional observations from a re-analysis of the deposited data

Results flagged for a closer look

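In 30 sets of within-library log2 ratios of CPM + 5 tested for a value far from the others, 5 had one; chance gives such a value in about 1 in 20 sets. In v1 E17.5 the beta-like over alpha-like ratio of Ppp1r1a was 6.59, against 1.57 to 2.95 in the other libraries, and its alpha-like sum held 1 Ppp1r1a UMI. In the same library the alpha-like over Fev+-like ratio was 6.52 for Abcc8 and 3.68 for Ero1lb, against 0.49 to 3.08 and -1.32 to 0.45 elsewhere, and its 21 Fev+-like cells held 0 UMIs of either gene. The beta-like over delta-like ratio of G6pc2 was 4.96 in v2 E17.5 (2.98 to 3.31 elsewhere), and that of Slc2a2 was 4.16 in the Fev-Cre library (5.21 to 5.26 elsewhere).

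The stage change differed between beta- and alpha-like cells by edgeR's interaction test for G6pc2 (2.48, adjusted p = 0.00044) and Ppp1r1a (1.51, adjusted p = 0.0084). The same fit gave 3.54 for Slc2a2 and 2.77 for Ucn3, but with 0 to 8 and 2 to 16 UMIs per alpha-like sum these genes passed the count filter through the beta-like sums alone, and no difference is read from them. None of the 4 was called at Leiden resolution 0.6, with doublets kept or with 500 genes per cell.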

How the results depend on the processing

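Of 695 alternative values of a member's log2 difference, 632 kept their direction and their side of the threshold, 13 came to pass it, 33 no longer passed and 17 turned direction. Ero1lb, G6pc2 and Ppp1r1a were called higher in beta- than in alpha-like cells in all 18 settings fitted, while the stage results depended on the cells and libraries used, as given beside them. With each library clustered alone, Ero1lb differed by -0.19 between alpha- and Fev+-like cells, Slc2a2 by -1.32 there in the exact permutation test, and between stages of beta-like cells Abcc8 by -0.015 and Ppp1r1a by -0.11. Between stages of beta-like cells Abcc8 also turned to -0.28 without v2 E14.5, -0.26 without v2 E17.5 and -0.0034 with the Fev-Cre library added, and Ppp1r1a to -0.21 with 500 genes per cell, -0.12 without v1 E17.5 (the range without 1 library being -0.28 to 0.38 for Abcc8 and -0.12 to 0.48 for Ppp1r1a, with 0.46 without v2 E14.5) and -0.0076 without the clusters low in insulin. Without v2 E17.5, Abcc8 differed by 0.15 between beta- and delta-like cells. The stage difference of beta-like minus alpha-like cells turned to -1.16, -1.10 and -1.35 for Slc2a2 and to -0.33, -0.19 and -0.74 for Ero1lb at Leiden resolution 0.6, with doublets kept and with 500 genes per cell, and to -0.22 for Ero1lb without v2 E17.5. The causes were not tested.

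The number of genes called was 1735 between beta- and alpha-like cells, and it was 2660 without the count filter, 1008 with each library clustered alone and 480 without the library term. In the same order of the last 2 settings it was 820 and 899 for beta- against Fev+-like cells (2099 otherwise), 1063 and 979 for alpha- against Fev+-like cells (2311; 1468 with doublets kept), and 1449 and 1020 for Fev+- against Ngn3+-like cells (2790). Against delta-like cells 1257 genes became 766 with DESeq2 and 295 without the library term. Against epsilon-like cells 292 became 495 with DESeq2, 1208 without the filter, 1559 at resolution 0.6, 620 with doublets, 1240 with 500 genes, 754 with 10 cells per sum and 154 without the library term. Between stages of beta-like cells 70 became 257 without the filter, 25 with each library clustered alone and 20 without the clusters low in insulin. In alpha-like cells 50 became 17 with DESeq2, 95 without the filter, 32 with doublets and 26 without cells of more than 1 hormone. For the difference between the stage changes 111 became 20 with DESeq2, 175 without the filter, 10 at resolution 0.6, 9 with doublets, 5 with 500 genes, 277 with the Fev-Cre library added and 22 without the clusters low in insulin.

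Leaving out 1 library at a time gave 1165 to 1932 genes for beta- against alpha-like cells, 1206 to 2215 (1325 without v2 E17.5) for beta- and 1478 to 2370 for alpha- against Fev+-like cells, 1929 to 2851 for Fev+- against Ngn3+-like cells, 569 to 1272 against delta-like and 98 to 1684 against epsilon-like cells. The ranges were 0 to 424 for stages of beta-like cells, 44 to 124 for stages of alpha-like cells and 18 to 340 for the difference between them. The 0 came from edgeR without v2 E14.5, where 256 of 5029 genes had an unadjusted p under 0.05. The alpha-like stage comparison could not be fitted with each library clustered alone. Class comparisons already keep the library as a term. No paired analysis was possible because, for stages, the groups compared share fewer than 2 replicate numbers of separate libraries: in v1 the numbers are batches and E17.5 was in batch 2 alone, and in v2 they are wells of 1 suspension. Levels of a gene in few cells are limited by depth, as the limit of 55.4 CPM for 3 UMIs in the Fev+-like cells of v1 E17.5 shows.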
